A study of Mus musculus with 30 samples.

Results

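The genes described here are 44 cell cycle genes, made up of 15 S phase genes, 11 regulators of G1 and 18 genes of mitosis, picked by name out of the 54134 rows of the count table. They were followed through 5 stages of the differentiation of mouse embryonic stem cells (ESCs) into neuromesodermal progenitors (NMPs), in wildtype and Nr6a1-/- cells. The choice used gene symbols and no measured value, although it was made with earlier results of these data known. All 44 symbols were found, and 43 passed the filter on low counts. Rb1, which encodes the retinoblastoma protein, did not pass and had 2 to 12 counts in each library.

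Cells that divide pass through G1, copy their DNA in S phase and separate the copies in mitosis. D cyclins with Cdk4 or Cdk6 and E cyclins phosphorylate the retinoblastoma protein, which releases E2F factors to transcribe the replication genes, and inhibitors such as p27 (Cdkn1b) and the products of Cdkn2a hold this step back. Genes of mitosis are transcribed later in the cycle, through CCAAT boxes bound by NF-Y and a nearby element called CHR that is bound by the DREAM and B-Myb complexes. ESCs and early epiblast cells are known for a short G1 and fast division, and the cycle lengthens as cells differentiate. In RNA from whole cultures, a change in the share of cells in a phase and a change in RNA per cell cannot be told apart.

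All cells were of the ESC line Bruce4. At d2 they had been given the growth factor FGF2 for 48 h. At d2.5 they had in addition been given the Wnt pathway agonist CHIR99021 (CHIR) for 12 h, and at d3 for 24 h. At d4 the d3 cells had stayed in FGF2 and CHIR for a further 24 h, and at d4G they had been given FGF2, CHIR and Gdf11, a TGF-beta family growth factor, for those 24 h. Each stage was sampled in wildtype cells and in cells of 1 Nr6a1-/- clone, in which CRISPR/Cas9 had deleted part of exon 4 on each allele, with 3 replicates in each of the 10 groups. The knockout is thus 1 clone, and effects of the genotype and of the clone cannot be told apart. No group after d2 was kept without CHIR, so that effects of CHIR and of time in culture cannot be told apart either. Medium was refreshed every 24 h, and the time since fresh medium thus differed at d2.5 as well. Nr6a1 is an orphan nuclear receptor. ESCs had been kept on mitotically inactive feeder fibroblasts, which were depleted before differentiation. Nothing in the labels says that replicates came from separate cultures, so that p-values measure the spread between these libraries, which may be technical.

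Totals ran from 1570714 to 3688197 counts, and a count of 0 allowed up to 0.829 to 1.91 CPM (counts scaled to a common library size, with TMM factors) depending on the library. The TMM factors ran from 0.9086, in replicate 1 of d4 Nr6a1-/-, to 1.048. Counts come from 3′ ends of polyadenylated RNA and say nothing of the deleted exon, so the genotype labels could not be checked on Nr6a1. The stage labels were checked on markers. T (Brachyury), a marker of NMPs, averaged 4.54 CPM in wildtype and 2.79 CPM in Nr6a1-/- libraries at d2, and 191 and 227 CPM at d2.5, while the epiblast gene Otx2 went from 50.4 and 84.8 CPM to 1.99 and 2.53 CPM. Summed over 8 feeder fibroblast markers, libraries held 19.7 to 76.5 CPM, with Lum at 0 in all groups but d4 Nr6a1-/-. The replicate 2 of d4 wildtype held 33.7 CPM of the summed epiblast markers against 5.67 and 10.8 CPM in its fellow libraries, and results of the 44 genes that rest on it are given without it as well. Chromosome 8 held 4.88 to 5.52% of the counts of tested genes in wildtype libraries and 3.77 to 4.32% in Nr6a1-/- libraries, a shift that touches 3 of the S phase genes.

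Between genotypes, 17 of the 43 genes were called at 1 or more of the 5 stages and 26 were called at none, with a call meaning an FDR below 0.05 in edgeR's quasi-likelihood test over 12149 genes. At d2 and at d2.5, 2 were called, with 8 called at d3, 16 at d4 and 6 after Gdf11 (d4G). As shares of the 43 genes these are 4.65%, 4.65%, 18.6%, 37.2% and 14.0%, beside 4.07%, 6.45%, 10.8%, 18.9% and 7.9% of all genes tested. The share of all genes tested with a call at 1 or more stages was not counted, so that the 17 of 43 stand without one. Higher and lower calls were equal in number at d3 (4 and 4) and d4 (8 and 8). The d3 split was 0 higher and 3 lower without wildtype replicate 1, 2 and 4 without replicate 2 and 1 and 4 without replicate 3, and it was 2 and 3, 1 and 3 and 2 and 4 without Nr6a1-/- replicates 1, 2 and 3. Members called at d2 and d2.5 were lower in Nr6a1-/- cells, and at d4G 2 were higher and 4 lower. Of all genes tested, 1.35%, 2.86%, 4.47%, 9.7% and 3.28% were higher at the successive stages and 2.72%, 3.59%, 6.3%, 9.18% and 4.63% were lower. Without d4 wildtype replicate 2, 11 genes were called at d4, 7 of them higher. Of the 34 calls, 13 held whichever single library was left out. Markers of other cell types also differed between the genotypes. At d4 the endoderm markers Sox17, Foxa2 and Cer1 summed to 32.9 to 39.6 CPM in wildtype and 1.28 to 5.81 CPM in Nr6a1-/- libraries, with Cer1 at 0 in every group. All 3 neural progenitor markers (Sox1, Pax6 and Irx3) were lower in Nr6a1-/- cells, summing to 16.2 to 21.4 CPM against 2.17 to 3.87 CPM, and the 3 presomitic mesoderm markers Tbx6, Msgn1 and Dll1 summed to 194.8 to 243.2 CPM against 375 to 434 CPM. The group means of the summed endoderm markers (wildtype first, Nr6a1-/- second) were 5.92 and 1.04 CPM at d2, 16.6 and 1.49 CPM at d2.5, 25.4 and 3.39 CPM at d3 and 45.1 and 3.27 CPM at d4G. Those of the neural progenitor markers were 51.1 and 29.0 CPM at d2, 13.7 and 5.91 CPM at d2.5 and 13.3 and 6.04 CPM at d3. The epiblast markers stood at 123 and 181 CPM at d2 and at 21.9 and 35.6 CPM at d3, the NMP markers at 638 and 935 CPM at d3 and 337 and 226 CPM at d4G, and the presomitic mesoderm markers at 151 and 252 CPM at d4G. Some markers went against these sums. They were the epiblast genes Nanog at d2 (21.7 and 16.6 CPM) and Otx2 at d3 (0.90 and 0.4 CPM). Among the NMP markers they were Sox2 (78.5 and 75.2 CPM) and Fgf17 (26.7 and 21.8 CPM) at d3 and Nkx1-2 at d4G (16.3 and 19.1 CPM). The neural progenitor marker Pax6 did so at d3 (1.21 and 1.71 CPM), and the presomitic mesoderm marker Msgn1 at d4 (3.02 and 2.26 CPM). The part of these cell types in the cell cycle genes' values was not tested.

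**Figure D1:**
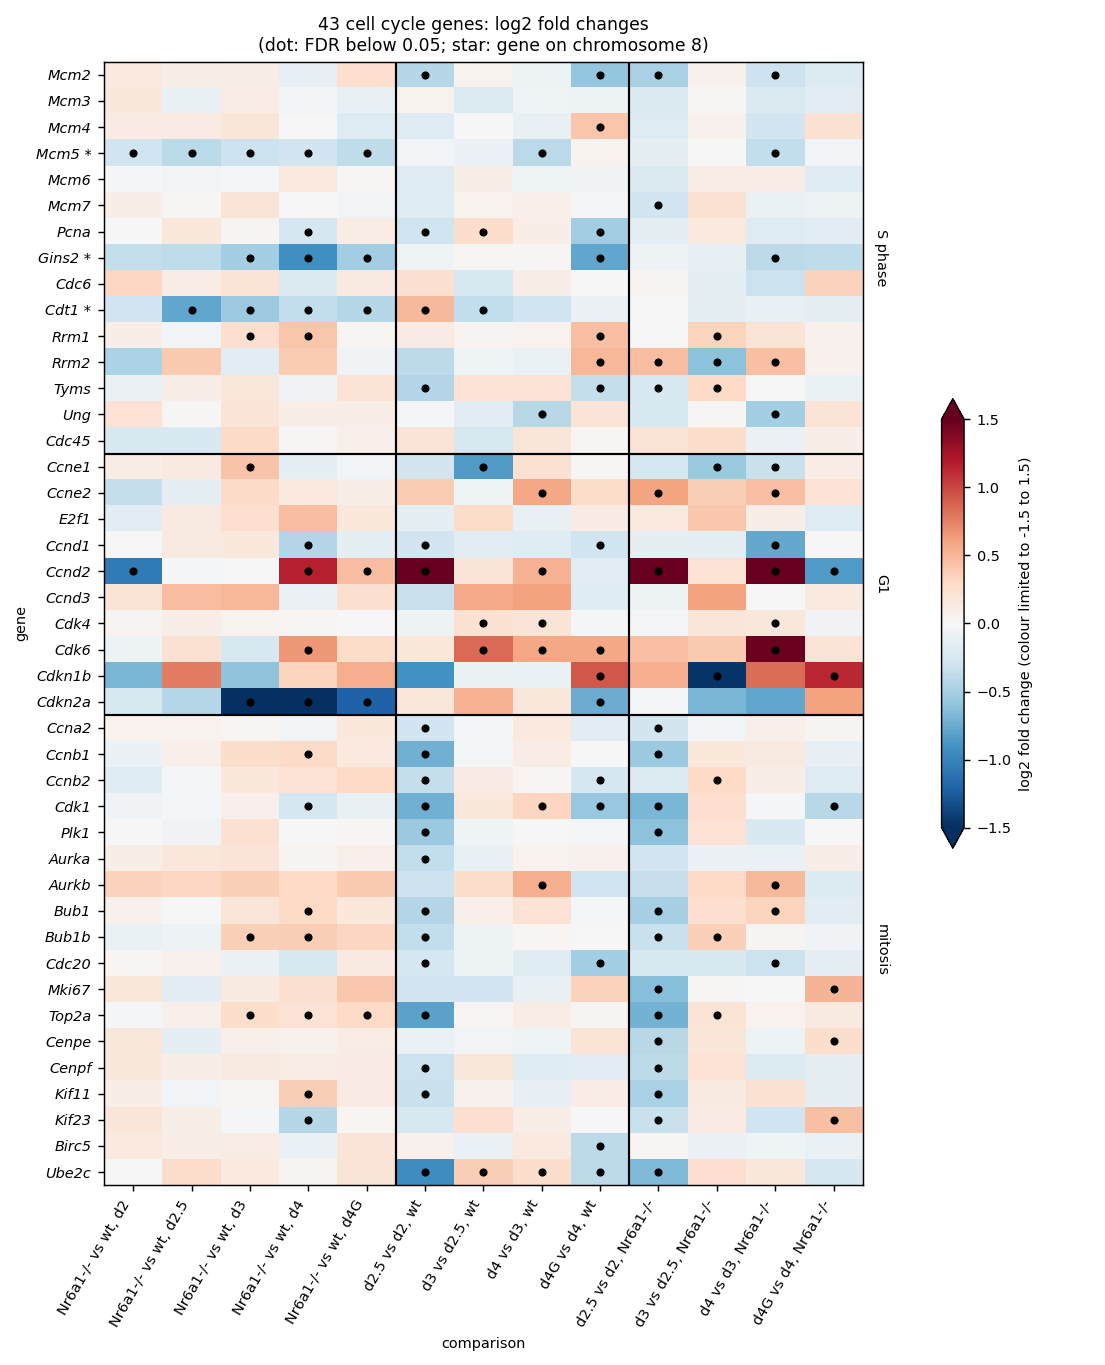
Log2 fold changes (colour) of the 43 tested cell cycle genes (rows, S phase, G1 and mitosis from top to bottom) in 13 comparisons (columns), with a dot where FDR was below 0.05 and a star on the 3 genes of chromosome 8. The starred rows are lower in Nr6a1-/- cells at most stages, Ccnd2 changes from lower at d2 to higher at d4, and most mitosis rows carry dots in the columns of d2.5 against d2.

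Among the 15 S phase genes, Nr6a1-/- cells had less RNA of the 3 that lie on chromosome 8, namely Mcm5, Cdt1 and Gins2, and these made 12 of the 15 S phase calls between genotypes. Away from chromosome 8, 1 of 12 genes was called at d3 and 2 at d4, beside 10.8% and 18.9% of all genes tested, and 0 at the other stages. Rrm1, the large subunit of ribonucleotide reductase, was higher at d3 and d4, and Pcna, the sliding clamp of the replicative polymerases, was lower at d4. The other subunits of the MCM helicase, Mcm2, Mcm3, Mcm4, Mcm6 and Mcm7, lie on other chromosomes and were called at no stage. Mcm7 overlaps Cops6 on the opposite strand, which had 22324 counts over all libraries against 14737 of Mcm7, so that its counts are uncertain. The median log2 fold change of the 15 genes lay between -0.04 and 0.12 at the 5 stages, beside -0.01 to 0.02 over all genes tested.

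Mcm5 encodes a subunit of the ring helicase that unwinds DNA at replication forks (chromosome 8, 75109569 to 75128439, plus strand, GRCm38). At d2 it stood at 236, 247 and 232 CPM in wildtype and 191, 189.8 and 199.5 CPM in Nr6a1-/- libraries. At d2.5 the values were 237, 225 and 233 CPM against 159.6, 185 and 181 CPM. The genotypes did not overlap at these or the later stages. At d3 wildtype libraries held 236, 209 and 209 CPM and Nr6a1-/- libraries 149, 183 and 192 CPM. At d4 the values were 160.0, 177 and 157 CPM against 126, 132 and 148 CPM, and at d4G 174, 160.0 and 178 CPM against 131, 136 and 128 CPM. Mcm5 was the only gene of the 43 called at all 5 stages, with log2 fold changes of -0.30 at d2 (SE 0.0877, FDR = 0.0432), -0.40 at d2.5 (SE 0.0884, FDR = 0.00297), -0.32 at d3 (SE 0.0887, FDR = 0.0145), -0.28 at d4 (SE 0.0907, FDR = 0.025) and -0.38 at d4G (SE 0.0931, FDR = 0.00629). The d2 call was lost whichever library was left out (FDR = 0.0852 to 0.152), the d3 call without wildtype or Nr6a1-/- replicate 1 (FDR = 0.0877 to 0.138) and the d4 call without wildtype replicate 2 or Nr6a1-/- replicate 1 or 2 (FDR = 0.0616 to 0.104). In each genotype Mcm5 also fell from d3 to d4, by 0.40 on the log2 scale in wildtype and by 0.36 in Nr6a1-/- cells.

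Cdt1 loads the MCM ring onto replication origins (chromosome 8, 122568015 to 122573554, plus strand). At d2.5 it stood at 134, 119 and 129 CPM in wildtype and 76.3, 72.5 and 73.0 CPM in Nr6a1-/- libraries (log2 fold change -0.78, SE 0.118, FDR = 2.26e-05). The lowest wildtype library thus held more than the highest Nr6a1-/- library, and this was the stage at which the genotypes lay farthest apart. At d2, before CHIR, the values were 104, 82.8 and 85.3 CPM against 82.8, 70.8 and 70.2 CPM and the difference was not called (FDR = 0.214). Cdt1 rose over the first 12 h of CHIR in wildtype cells (log2 fold change 0.49, SE 0.118, FDR = 0.00197), while the change in Nr6a1-/- cells was -0.01 (FDR = 0.972). The difference between these responses was not tested. At d3 wildtype libraries held 111, 93.5 and 92.8 CPM and Nr6a1-/- libraries 77.5, 62.4 and 62.5 CPM (log2 fold change -0.55, SE 0.122, FDR = 0.00208). At d4 the values were 75.9, 88.1 and 75.9 CPM against 52.8, 62.9 and 71.2 CPM (log2 fold change -0.36, SE 0.124, FDR = 0.0344). At d4G they were 81.4, 70.2 and 75.5 CPM against 61.6, 62.4 and 45.9 CPM (log2 fold change -0.43, SE 0.131, FDR = 0.0345). The genotypes did not overlap at the last 3 stages either, but the d4 call was lost without wildtype replicate 2 or Nr6a1-/- replicate 1 or 2 (FDR = 0.0682 to 0.149) and the d4G call without wildtype replicate 1 or 3 or Nr6a1-/- replicate 3 (FDR = 0.0696 to 0.27).

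Gins2 belongs to the GINS complex, which joins MCM in the active helicase (chromosome 8, 120578633 to 120589304, minus strand). At d2 it stood at 74.3, 63.7 and 68.5 CPM in wildtype and 49.9, 52.4 and 58.4 CPM in Nr6a1-/- libraries, which was not called (FDR = 0.124), as at d2.5 (FDR = 0.0869), where the values were 68.1, 64.0 and 66.3 CPM against 51.0, 51.8 and 50.1 CPM. At d3 the values were 65.7, 68.1 and 67.2 CPM against 57.0, 35.1 and 48.4 CPM (log2 fold change -0.51, SE 0.133, FDR = 0.00885). At d4 wildtype libraries held 79.8, 59.7 and 65.4 CPM and Nr6a1-/- libraries 40.7, 36.8 and 29.8 CPM (log2 fold change -0.92, SE 0.137, FDR = 3.23e-06), the widest gap of any S phase gene at any stage. At d4G the values were 40.0, 42.2 and 35.8 CPM against 24.5, 32.5 and 26.2 CPM (log2 fold change -0.52, SE 0.160, FDR = 0.0351). The genotypes did not overlap at any of the 5 stages. The d3 call was lost without Nr6a1-/- replicate 2 (FDR = 0.121) and the d4G call without wildtype replicate 1 or 2 or Nr6a1-/- replicate 1 or 3 (FDR = 0.0885 to 0.179). Gins2 overlaps Gse1 on the opposite strand, and its counts are uncertain to that extent, because the sources used here do not say whether reads were counted by strand.

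The values of these 3 genes stand beside those of their chromosome. Over the 655 tested genes of chromosome 8, the median log2 fold change of Nr6a1-/- against wildtype cells was -0.38, -0.38, -0.37, -0.29 and -0.31 from d2 through d4G, and 73.6 to 88.7% of them lay below 0. Over 11372 genes of other chromosomes the median was 0.0049 to 0.0338. Depending on the stage, 23.1 to 30.5% of the chromosome 8 genes and 1.54 to 7.98% of the others were called lower. Mcm5 lay above the chromosome's median at d2, d3 and d4 and below it at d2.5 and d4G. Cdt1 and Gins2 lay below it at each stage where they were called. For Cdt1 the values were -0.78, -0.55, -0.36 and -0.43 from d2.5 through d4G, and for Gins2 -0.51, -0.92 and -0.52 from d3 through d4G. The part of the chromosome's shift in the values of these genes was not tested.

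**Figure D2:**
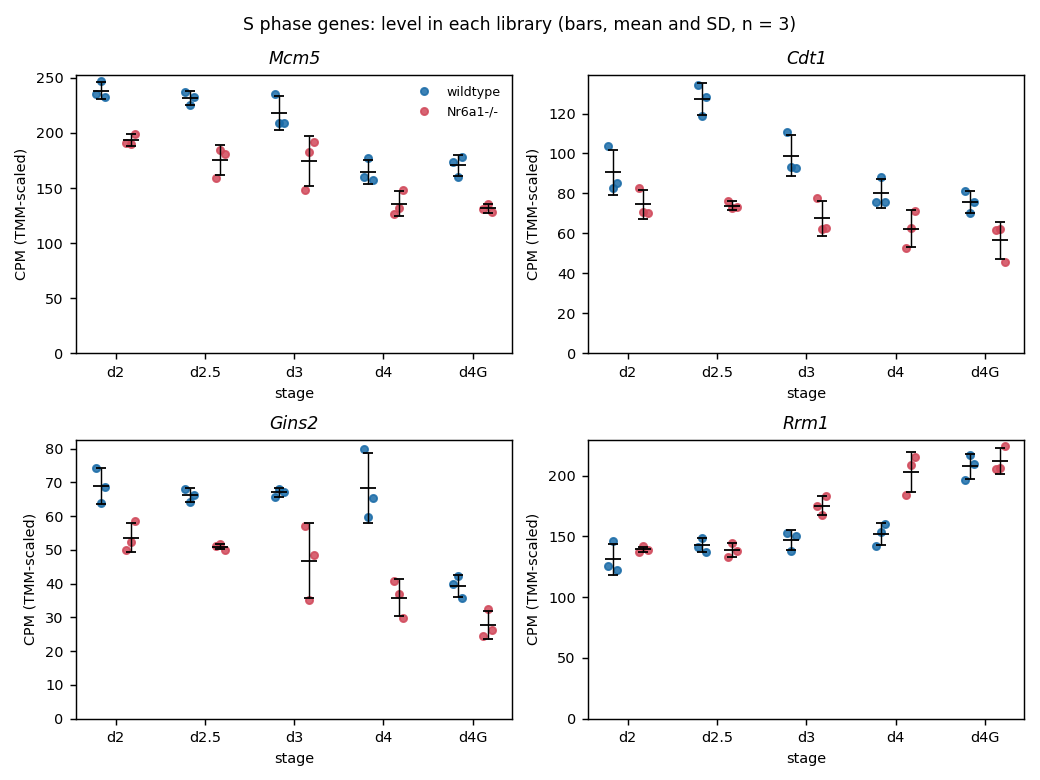
CPM of Mcm5, Cdt1, Gins2 and Rrm1 (vertical axes, from 0) at 5 stages (horizontal axes) in wildtype (blue) and Nr6a1-/- (red) libraries, with 1 point per library and bars for the mean and SD of 3 libraries. The red points of Mcm5 and Gins2 lie below the blue ones at every stage, and those of Rrm1 lie above at d3 and d4.

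Rrm1 supplies deoxynucleotides together with Rrm2 (chromosome 7, 102441695 to 102469771, plus strand). Its d2 level was 125, 146 and 123 CPM in wildtype and 137, 142 and 139 CPM in Nr6a1-/- libraries, and its d2.5 level 141, 149 and 138 CPM against 133, 145 and 138 CPM. At both stages the genotypes overlapped. At d3 wildtype libraries held 153, 138 and 151 CPM and Nr6a1-/- libraries 175, 168 and 183 CPM (log2 fold change 0.25, SE 0.0842, FDR = 0.0451). At d4 the values were 142, 153 and 160.0 CPM against 185, 209 and 216 CPM (log2 fold change 0.42, SE 0.0824, FDR = 2.65e-04). The genotypes did not overlap at these 2 stages, but the d3 call was lost whichever library was left out (FDR = 0.0511 to 0.197), whereas the d4 call held. With Gdf11 the genotypes overlapped again, at 197, 217 and 209.5 CPM against 205, 206 and 224 CPM (FDR = 0.906).

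Pcna stood at 276, 304 and 287 CPM in wildtype and 258, 236 and 236 CPM in Nr6a1-/- libraries at d4 (log2 fold change -0.25, SE 0.0790, FDR = 0.0219), without overlap. This call was lost without wildtype replicate 2 or Nr6a1-/- replicate 2 or 3 (FDR = 0.0745 to 0.0885). Without wildtype replicate 2 only Gins2 remained lower among the S phase genes at d4 and Rrm1 higher. Rrm2, the S phase gene with most counts, spread widely among replicates and was called between genotypes at no stage. Its d2 libraries stood at 616, 824 and 766 CPM in wildtype and 513, 446 and 632 CPM in Nr6a1-/- libraries, and its d2.5 libraries at 542, 402 and 729.6 CPM against 806, 642 and 751 CPM. At d3 the values were 499, 502 and 604 CPM against 399.5, 499 and 540.4 CPM, at d4 419, 479 and 603 CPM against 678, 613 and 672 CPM and at d4G 605, 666 and 858 CPM against 855, 667 and 534 CPM. The S phase gene with fewest counts, Cdc45 of the active helicase, overlaps Ufd1 on the opposite strand. It ranged from 14.0 to 30.0 CPM in wildtype and from 13.7 to 27.4 CPM in Nr6a1-/- libraries and was called between genotypes at no stage.

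The promoters of the S phase genes were read for the letters of an E2F core (TTNNCGC on either strand, where NN stands for any pair made of C or G) in windows of 300 bases, from 250 bases before to 50 after each start given by RefSeq (GRCm38.p6). Windows were held for 36 of the 44 genes, and not for Gins2, Mcm4, Ccne2, Ccnd1, Ccnd2, Rb1, Ccna2 and Aurkb. An E2F core was present in 8 of 13 S phase genes (61.5%), 1 of 7 G1 regulators (14.3%) and 3 of 16 mitosis genes (18.8%), beside 9.57% of all 32851 windows. A gene counted if any of its windows held the letters, and 3 genes had 2 windows, whereas the share of all windows is of single windows. The 250 bases before the start of Mcm5, the S phase gene called at most stages, are shown 5′ to 3′ in lower case with E2F cores and CCAAT boxes in capitals (chr8:75109259-75109508, plus strand).
Mcm5: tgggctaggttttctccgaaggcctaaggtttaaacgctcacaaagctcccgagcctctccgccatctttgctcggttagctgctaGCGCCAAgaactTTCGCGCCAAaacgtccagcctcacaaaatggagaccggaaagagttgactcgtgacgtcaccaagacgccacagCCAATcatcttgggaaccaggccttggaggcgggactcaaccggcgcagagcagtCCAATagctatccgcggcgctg
The E2F cores begin 164, 152 and 149 bases before the RefSeq start, and the last 2 of them overlap. The CCAAT boxes begin 77 and 22 bases before it. The GENCODE start of Mcm5, 75109569, lies downstream of the RefSeq one. These letters are a description of the sequence, and binding was not measured.

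Along the differentiation, up to d4 without Gdf11, no step had more than 5 of the 15 S phase genes called. Over the first 12 h of CHIR, 1 of 15 rose and 3 fell in wildtype cells, beside 13.3% and 12.1% of all genes tested. In Nr6a1-/- cells 1 rose and 3 fell as well, beside 12.9% and 11.2%. Mcm2 fell in both, from 381 ± 25.1 to 284 ± 6.87 CPM in wildtype cells (SD, n = 3, log2 fold change -0.43, SE 0.0906, FDR = 4.82e-04) and from 423 ± 4.78 to 302 ± 5.31 CPM in Nr6a1-/- cells (log2 fold change -0.49, SE 0.0889, FDR = 6.37e-05). Tyms, thymidylate synthase, also fell in both (-0.44 and -0.24, FDR = 3.23e-04 and 0.0418), although the Nr6a1-/- call was lost without d2 replicate 1 or 3 or d2.5 replicate 2 or 3 (FDR = 0.0709 to 0.11). From d2.5 to d3, 1 rose and 1 fell in wildtype (all genes 5.91% and 5.56%) and 2 rose and 1 fell in Nr6a1-/- cells (7.43% and 8.45%). From d3 to d4, none rose and 2 fell in wildtype (9.77% and 11.3%), and 1 rose and 4 fell in Nr6a1-/- cells (13.6% and 12.3%). Ung, a uracil DNA glycosylase, fell in both genotypes at that step (-0.41 and -0.51, FDR = 0.0216 and 0.00359). The wildtype call was lost without d3 replicate 1 or 2 or d4 replicate 3 (FDR = 0.0709 to 0.102) and the Nr6a1-/- call without d3 replicate 2 (FDR = 0.0609).

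The G1 regulators held the largest changes. Cyclin D2 (Ccnd2), a partner of Cdk4 and Cdk6, rose several-fold in both genotypes within 12 h of CHIR, was lower in Nr6a1-/- cells before CHIR and higher in them at d4. Cdkn2a, which encodes the inhibitors p16 and p19Arf, was lower in Nr6a1-/- cells from d3 on. At d4, Nr6a1-/- cells also had more Cdk6 and less cyclin D1 (Ccnd1). Of the 10 G1 regulators tested, 1 was called between genotypes at d2, 0 at d2.5 (with 1 at an unadjusted p below 0.05 in edgeR's test and 0 called by DESeq2), 2 at d3, 4 at d4 and 2 at d4G. All genes tested gave 4.07%, 6.45%, 10.8%, 18.9% and 7.9% at the 5 stages.

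Ccnd2 lies on chromosome 6 (127125162 to 127152193, minus strand) and had the highest mean of the G1 regulators. At d2 it stood at 108, 158 and 124 CPM in wildtype and 62.1, 53.9 and 69.0 CPM in Nr6a1-/- libraries (log2 fold change -1.06, SE 0.151, FDR = 8.79e-06). No Nr6a1-/- library reached the lowest wildtype library. After 12 h of CHIR the values were 618, 542 and 749 CPM against 665, 606 and 617 CPM, and at d3 654, 702 and 831 CPM against 712, 729 and 758 CPM. At both stages the groups overlapped and their difference was close to 0 (-0.02, SE 0.123, FDR = 0.97 at d2.5 and 0.01, SE 0.122, FDR = 0.984 at d3). At d4 wildtype libraries held 991, 906 and 1249.7 CPM and Nr6a1-/- libraries 2512, 2275 and 2247 CPM (log2 fold change 1.16, SE 0.121, FDR = 2.15e-09). Each Nr6a1-/- library at d4 thus held more than the highest wildtype library of any stage. At d4G the values were 808, 936 and 1076 CPM against 1482, 1246 and 1166 CPM (log2 fold change 0.47, SE 0.121, FDR = 0.00999), again without overlap, though this call was lost without wildtype replicate 1 or 2 or Nr6a1-/- replicate 1 (FDR = 0.0523 to 0.115).

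The steps between stages show the same gene from the other side. Over the first 12 h of CHIR, Ccnd2 rose by a log2 fold change of 2.30, SE 0.136, FDR = 7.96e-16 in wildtype and 3.35, SE 0.145, FDR = 4.20e-20 in Nr6a1-/- cells, the largest change of any of the 43 genes in either genotype. From d2.5 to d3 it was not called (0.20 and 0.22). From d3 to d4 it rose in wildtype (0.52, SE 0.121, FDR = 0.00158) and in Nr6a1-/- cells (1.68, SE 0.123, FDR = 2.76e-13). With Gdf11 it fell in Nr6a1-/- cells (-0.85, SE 0.121, FDR = 1.28e-06), while the change in wildtype cells was -0.16 (FDR = 0.351). Differences between the genotypes' responses were called for 2.27% of all genes tested from d2 to d3 and for 5.72% from d3 to d4, and for 1 and 3 of the 43. For Ccnd2 the change from d2 to d3 was larger in Nr6a1-/- cells by 1.07, SE 0.195, FDR = 7.15e-04, and that from d3 to d4 by 1.15, SE 0.171, FDR = 1.77e-05. The difference in the response to Gdf11 was -0.69, SE 0.170, FDR = 0.0154, and was lost without d4 wildtype replicate 1 or 2, d4G wildtype replicate 3 or d4G Nr6a1-/- replicate 3 (FDR = 0.0502 to 0.0767). The 3 tests share libraries, and they share them with the comparisons of genotypes.

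**Figure D3:**
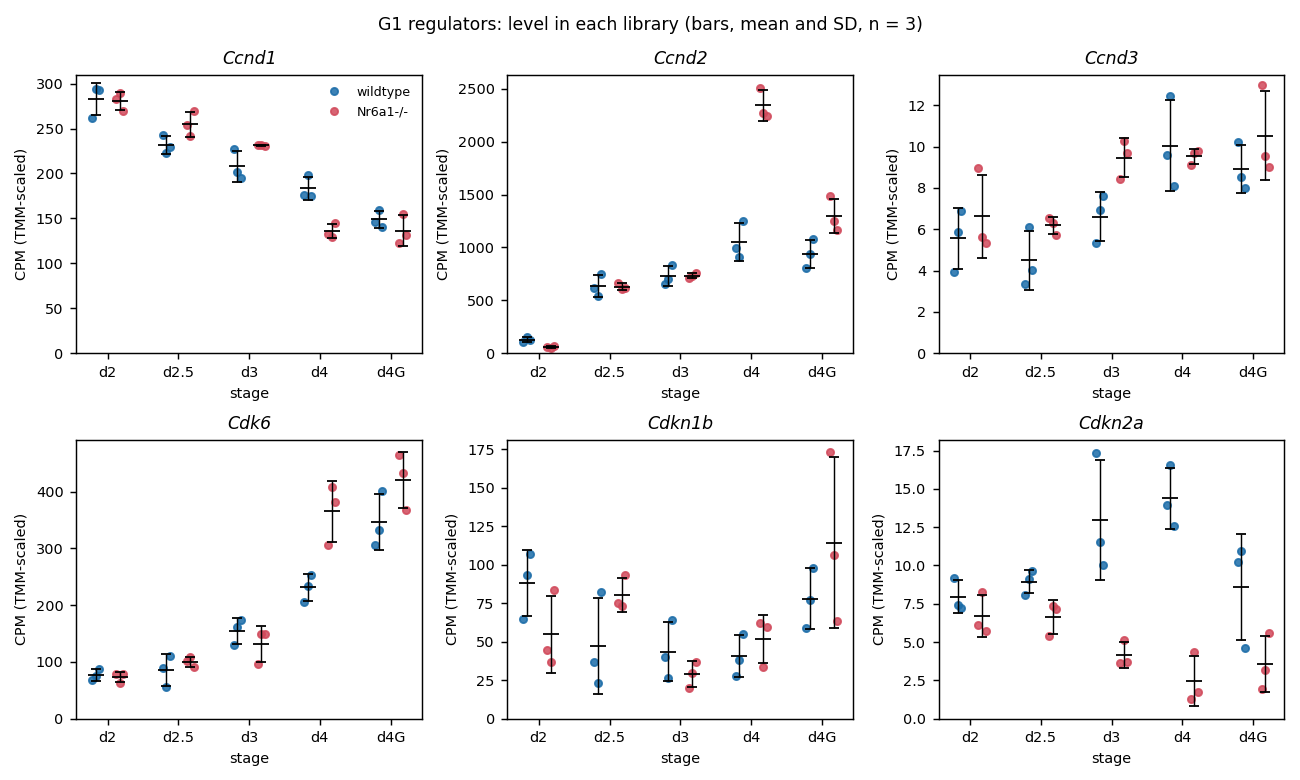
CPM of Ccnd1, Ccnd2, Ccnd3, Cdk6, Cdkn1b and Cdkn2a (vertical axes, from 0) at 5 stages (horizontal axes) in wildtype (blue) and Nr6a1-/- (red) libraries, with 1 point per library and bars for the mean and SD of 3 libraries. Ccnd2 climbs from 129.8 to 1049 CPM in wildtype and from 61.7 to 2345 CPM in Nr6a1-/- cells between d2 and d4, Ccnd1 declines over the same time, and the red points of Cdkn2a lie below the blue ones at d3 and d4.

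Cyclin D1, unlike cyclin D2, had lower means at d4 than at d2 in both genotypes (Ccnd1, chromosome 7, 144929931 to 144939925, minus strand). Before CHIR, at d2, it stood at 262, 294 and 292 CPM in wildtype and 283, 289.8 and 270.1 CPM in Nr6a1-/- libraries. At d2.5 the values were 243, 223 and 229 CPM against 254, 241 and 269 CPM, and at d3 227, 202 and 195 CPM against 232, 232 and 231 CPM. No difference was called at these stages, although at d3 the Nr6a1-/- libraries lay above the wildtype ones. At d4 wildtype libraries held 177, 199 and 175 CPM and Nr6a1-/- libraries 133, 129.7 and 144 CPM (log2 fold change -0.44, SE 0.0883, FDR = 3.54e-04), without overlap. At d4G the values were 147, 159.6 and 140.4 CPM against 122, 155 and 132 CPM and overlapped (FDR = 0.485). Ccnd1 fell from d3 to d4 in Nr6a1-/- cells (-0.77, SE 0.0882, FDR = 1.52e-08), where the change in wildtype cells was -0.18 (FDR = 0.144), and the difference between these changes was itself called (-0.59, SE 0.123, FDR = 0.00205). In wildtype cells Ccnd1 fell over the first 12 h of CHIR (-0.29, SE 0.0852, FDR = 0.0113) and with Gdf11 (-0.30, SE 0.0874, FDR = 0.00796). The first of these calls was lost without d2 replicate 3 (FDR = 0.052) and the second without d4 replicate 2 or d4G replicate 3 (FDR = 0.0567 to 0.0588).

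Cyclin D3 (Ccnd3) was at low counts, from 3.33 to 12.4 CPM in wildtype and 5.31 to 13.0 CPM in Nr6a1-/- libraries, and was called in no comparison. Its d2 libraries were 3.94, 5.84 and 6.88 CPM in wildtype and 8.94, 5.62 and 5.31 CPM in Nr6a1-/- cells, and its d2.5 libraries 3.33, 6.10 and 4.05 against 6.52, 6.30 and 5.72 CPM. They were 5.31, 6.91 and 7.60 CPM in wildtype and 8.43, 10.3 and 9.67 CPM in Nr6a1-/- cells at d3, and 9.59, 12.4 and 8.11 against 9.10, 9.68 and 9.80 CPM at d4. With Gdf11 they were 10.2, 8.53 and 8.01 against 13.0, 9.55 and 9.01 CPM. It overlaps Bysl on the opposite strand, which had 4279 counts over all libraries against 565 of Ccnd3.

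Cdk6, a kinase partner of the D cyclins (chromosome 5, 3341485 to 3531008, plus strand), climbed through the differentiation in both genotypes. Its d2 mean was 76.4 ± 10.2 CPM in wildtype and, in Nr6a1-/- cells, 73.2 ± 9.26 CPM (SD, n = 3) and the d4G means were 347 ± 49.1 and 422 ± 49.4 CPM. At d4 wildtype libraries held 206, 235 and 253 CPM and Nr6a1-/- libraries 305, 409 and 382 CPM (log2 fold change 0.66, SE 0.152, FDR = 0.00171), without overlap. In wildtype cells it rose from d2.5 to d3 (0.85, SE 0.174, FDR = 7.05e-04), from d3 to d4 (0.58, SE 0.158, FDR = 0.00682) and with Gdf11 (0.58, SE 0.152, FDR = 0.00345). The middle one of these calls was lost without d3 replicate 1 (FDR = 0.0678). In Nr6a1-/- cells it rose from d3 to d4 (1.47, SE 0.159, FDR = 4.34e-09), more than in wildtype cells (0.89, SE 0.224, FDR = 0.0122). That difference was lost without d3 wildtype replicate 3 or d3 Nr6a1-/- replicate 1 (FDR = 0.0503 to 0.0591). Cdk4, the other kinase of the D cyclins, averaged 428 ± 23.3 CPM at d2 and 544 ± 7.18 CPM at d4 in wildtype cells, rose there from d2.5 to d3 (0.23, SE 0.0668, FDR = 0.021) and from d3 to d4 (0.19, SE 0.0656, FDR = 0.0338), and was called between genotypes at no stage. The first of these rises was lost without d2.5 replicate 1 or 3 or d3 replicate 1 (FDR = 0.0575 to 0.0775) and the second without any of 5 of the 6 libraries (FDR = 0.0636 to 0.14). In Nr6a1-/- cells Cdk4 averaged 441 ± 14.6 CPM at d2 and 556 ± 22.9 CPM at d4. There it rose from d3 to d4 (0.17), a call at the edge of the threshold that was lost without any of 5 libraries (FDR = 0.0651 to 0.255).

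Cdkn2a (chromosome 4, 89274471 to 89294653, minus strand) was at low counts throughout. Before CHIR it stood at 9.18, 7.43 and 7.23 CPM in wildtype and 6.12, 8.24 and 5.69 CPM in Nr6a1-/- libraries, and at d2.5 at 8.10, 9.15 and 9.61 CPM against 5.37, 7.35 and 7.15 CPM, with no call at either stage, although the d2.5 groups did not overlap. At d3 the values were 17.4, 11.5 and 10 CPM against 3.61, 5.13 and 3.72 CPM (log2 fold change -1.62, SE 0.327, FDR = 7.03e-04). At d4 they were 13.9, 16.6 and 12.6 CPM against 1.30, 4.35 and 1.70 CPM (log2 fold change -2.57, SE 0.356, FDR = 8.41e-07). In counts, the d4 libraries held 32, 60 and 42 in wildtype and 3, 9 and 4 in Nr6a1-/- cells, so that the Nr6a1-/- libraries were close to what a count of 0 allows. At d4G the values were 10.2, 11.0 and 4.64 CPM against 1.92, 3.18 and 5.58 CPM (log2 fold change -1.22, SE 0.379, FDR = 0.0386) and overlapped. The d3 and d4 calls held whichever library was left out, and the d4G call was lost without wildtype replicate 1 or 2 or Nr6a1-/- replicate 1 or 2 (FDR = 0.109 to 0.236). The p16 and p19Arf transcripts begin at different starts and share their last exons, so that counts from 3′ ends do not tell them apart.

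Cdkn1b, which encodes the CDK inhibitor p27 (chromosome 6, 134920401 to 134925513, plus strand), spread more among replicates than any other tested gene of the 43, with a median coefficient of variation of 32.2% over the 10 groups. At d2 it stood at 64.7, 92.9 and 107 CPM in wildtype and 44.2, 36.7 and 83.4 CPM in Nr6a1-/- libraries. At d2.5 the values were 36.7, 22.9 and 82.0 CPM against 74.8, 73.2 and 93.0 CPM, and at d3 40.1, 26.2 and 64.0 CPM against 20.1, 29.5 and 36.8 CPM. At d4 they were 27.9, 38.1 and 54.9 CPM against 61.9, 33.4 and 59.2 CPM, and at d4G 58.6, 77.1 and 97.8 CPM against 173, 106 and 63.1 CPM. The genotypes overlapped at 5 of 5 stages and no difference was called. Wildtype replicate 3 was the highest of the 3 wildtype libraries at all 5 stages for Cdkn1b and for Cdk6, and at 4 of 5 stages for Ccnd2, Rrm2 and Tyms. Cdkn1b rose with Gdf11 in wildtype (log2 fold change 0.93, SE 0.338, FDR = 0.0361) and Nr6a1-/- cells (log2 fold change 1.13, SE 0.335, FDR = 0.0144), and fell from d2.5 to d3 in Nr6a1-/- cells (log2 fold change -1.47, SE 0.359, FDR = 0.00338). The wildtype call with Gdf11 was lost without d4 replicate 1 or 2 or d4G replicate 2 or 3 (FDR = 0.0681 to 0.16), and the Nr6a1-/- call without d4 replicate 2 or d4G replicate 1 (FDR = 0.0811 to 0.226).

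Cyclin E1 (Ccne1), which acts with Cdk2 at the entry into S phase, fell from d2.5 to d3 in wildtype (-0.85, SE 0.127, FDR = 6.88e-06) and in Nr6a1-/- cells (-0.56, SE 0.118, FDR = 7.26e-04). At d3 wildtype libraries held 51.2, 68.1 and 53.2 CPM and Nr6a1-/- libraries 78.3, 78.7 and 75.1 CPM (log2 fold change 0.43, SE 0.128, FDR = 0.0245), without overlap. The d3 call was lost without wildtype replicate 1 or 3 or Nr6a1-/- replicate 1 or 2 (FDR = 0.0654 to 0.133). Cyclin E2 (Ccne2) rose from d3 to d4 in wildtype (0.58, SE 0.137, FDR = 0.00187) and Nr6a1-/- cells (0.45, SE 0.134, FDR = 0.012), the latter a call lost without d3 replicate 2 or d4 replicate 2 or 3 (FDR = 0.0509 to 0.0679). It overlaps Ints8 on the opposite strand. E2f1, a transcription factor of S phase genes, was called in no comparison, at a mean of 14.2 CPM over all libraries.

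Most genes of mitosis fell over the first 12 h of CHIR, a step for which no group without CHIR was sampled. In wildtype cells 13 of 18 fell and none rose, and in Nr6a1-/- cells 13 of 18 fell and none rose, beside 12.1% and 11.2% of all genes tested that fell and 13.3% and 12.9% that rose. The median log2 fold change of the 18 genes was -0.35 in wildtype and -0.41 in Nr6a1-/- cells, while that of all genes tested was close to 0. The 2 steps share no library, and 10 genes were called in both, 76.9% of each list. The share of all genes tested that fell in both genotypes was not counted, so that this overlap stands without one. Of the 13 calls in each genotype, 7 in wildtype and 10 in Nr6a1-/- cells held whichever library was left out. Aurka, Ccnb2 and Cdc20 were called in wildtype cells alone and Cenpe, Kif23 and Mki67 in Nr6a1-/- cells alone, differences that were not tested. Aurka was lost without any of 4 libraries, Cdc20 and Kif23 of 5 each and Ccnb2 without 1 (FDR = 0.0501 to 0.262), while Cenpe and Mki67 held. Aurkb and Birc5, both of the chromosomal passenger complex, were called in neither. Of all 43 genes, 2 rose and 17 fell in wildtype and 3 rose and 16 fell in Nr6a1-/- cells. With no scaling beyond library totals these splits were 3 and 10 in wildtype and 4 and 11 in Nr6a1-/- cells, and 8 and 10 of the mitosis genes fell.

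Top2a, the topoisomerase that untangles sister chromatids, had the highest mean of the mitosis genes (chromosome 11, 98992943 to 99024189, minus strand). Its wildtype libraries went from 854, 876 and 851 CPM at d2 to 517, 508 and 459 CPM at d2.5 (log2 fold change -0.80, SE 0.0719, FDR = 8.86e-11). Its Nr6a1-/- libraries went from 834, 868 and 856 CPM to 529, 499.6 and 537 CPM (log2 fold change -0.71, SE 0.0711, FDR = 7.44e-10). Ube2c, the E2 enzyme of the anaphase promoting complex (chromosome 2, 164769898 to 164778822, plus strand), went from 314, 305 and 333 CPM to 153, 177 and 171 CPM in wildtype libraries (log2 fold change -0.93, SE 0.0962, FDR = 2.02e-09). In Nr6a1-/- libraries it went from 303, 362 and 283 CPM to 188, 193 and 219 CPM (log2 fold change -0.66, SE 0.0931, FDR = 9.75e-07). Cdk1, the kinase that drives entry into mitosis (chromosome 10, 69335146 to 69352938, minus strand), went from 206, 203 and 198 CPM to 127, 127 and 114 CPM in wildtype libraries (log2 fold change -0.72, SE 0.1, FDR = 9.43e-07) and from 204, 196 and 186 CPM to 132, 111 and 121 CPM in Nr6a1-/- libraries (log2 fold change -0.69, SE 0.0977, FDR = 1.17e-06). For none of these 3 genes did a d2.5 library reach a d2 library of the same genotype. Cyclin B1 (Ccnb1), the partner of Cdk1, fell by 0.72 on the log2 scale in wildtype and by 0.56 in Nr6a1-/- cells. The polo kinase Plk1 fell by 0.55 and 0.62, and the checkpoint kinase Bub1 by 0.44 and 0.50. Mki67, the antigen used to count proliferating cells, fell in Nr6a1-/- cells (-0.64, SE 0.147, FDR = 0.00126), from 134 ± 38.0 to 86.0 ± 4.37 CPM (SD, n = 3), and changed by -0.29 in wildtype cells (FDR = 0.16).

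**Figure D4:**
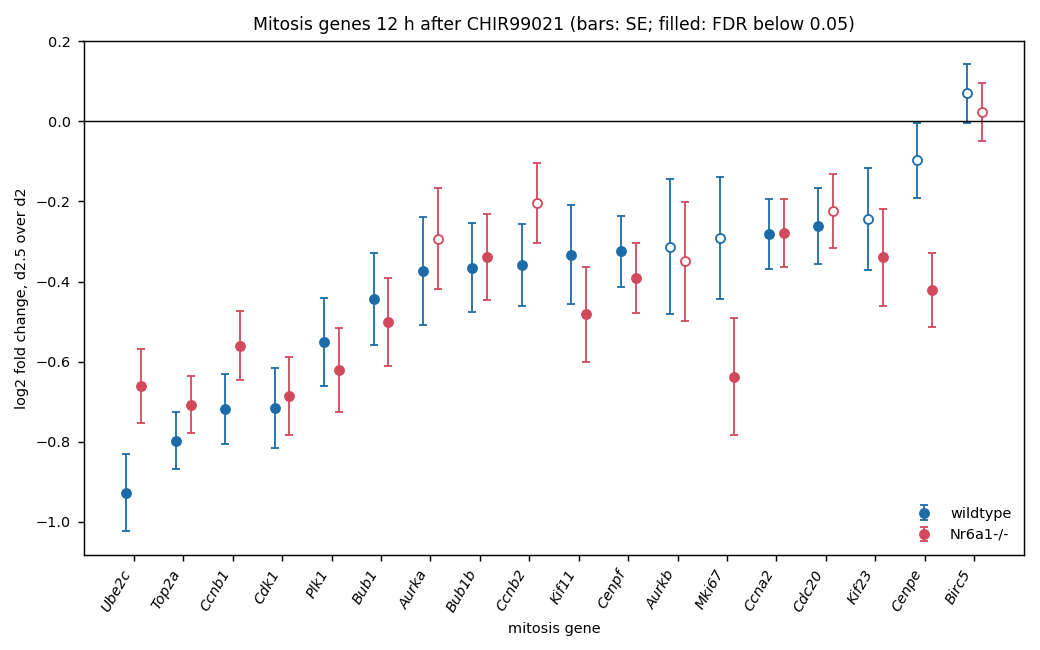
Log2 fold change of each of the 18 mitosis genes (horizontal axis) between d2 and d2.5, the first 12 h of CHIR, in wildtype (blue) and Nr6a1-/- (red) cells, with bars for the SE and filled points where FDR was below 0.05. In each genotype 17 of 18 points lie below 0 and 13 are filled.

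The windows of 300 bases at the starts of mitosis genes held CCAAT in 15 of 16 genes (93.8%), beside 37.4% of all windows, and the CHR letters TTTGAA in 12 of 16 (75.0%), beside 17.9%, counting both strands. As for E2F, a gene counted by any of its windows and the shares of all windows are of single windows. Among the S phase genes CCAAT was present in 9 of 13 (69.2%) and TTTGAA in 2 of 13 (15.4%), and among the G1 regulators in 3 of 7 (42.9%) and 0 of 7. The 250 bases before the starts of Top2a, Ube2c and Cdk1 are shown, Top2a as the mitosis gene called between genotypes at most stages and the other two, chosen after their values were seen, for their fall over the first 12 h of CHIR in both genotypes (chr11:99024190-99024439, minus strand, chr2:164769679-164769928, plus strand, and chr10:69352913-69353162, minus strand). Capitals mark CCAAT boxes, CHR letters and, in Cdk1 alone, E2F cores, each on either strand.
Top2a: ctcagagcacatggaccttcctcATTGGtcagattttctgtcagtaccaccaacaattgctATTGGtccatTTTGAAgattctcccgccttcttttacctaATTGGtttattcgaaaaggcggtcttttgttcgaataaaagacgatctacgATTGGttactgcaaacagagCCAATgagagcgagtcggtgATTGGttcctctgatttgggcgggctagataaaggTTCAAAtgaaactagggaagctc
Ube2c: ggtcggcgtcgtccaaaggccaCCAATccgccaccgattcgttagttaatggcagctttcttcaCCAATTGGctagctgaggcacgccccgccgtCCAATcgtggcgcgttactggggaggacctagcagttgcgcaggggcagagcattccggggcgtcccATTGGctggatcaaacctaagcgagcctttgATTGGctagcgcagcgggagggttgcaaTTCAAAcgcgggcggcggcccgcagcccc
Cdk1: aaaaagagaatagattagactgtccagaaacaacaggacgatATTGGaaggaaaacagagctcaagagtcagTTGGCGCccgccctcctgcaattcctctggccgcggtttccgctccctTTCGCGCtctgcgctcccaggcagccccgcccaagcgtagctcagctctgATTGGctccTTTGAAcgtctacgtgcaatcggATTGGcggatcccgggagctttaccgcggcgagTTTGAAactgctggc
Each stretch holds 3 or more CCAAT boxes. The CHR letters lie within 30 bases before the RefSeq start in all 3, at 23 bases in Top2a, 29 in Ube2c and 15 in Cdk1, and again farther upstream in Top2a and Cdk1. By the GENCODE coordinates given above, Ube2c and Cdk1 begin within the stretches shown, so that their distances hold for the RefSeq starts alone. Of the 16 genes searched, Birc5 alone held neither CCAAT nor TTTGAA. Bub1, Ccnb1 and Cenpe held CCAAT without TTTGAA. A match to these letters does not show that a factor was bound.

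After d2.5, 1 to 3 of the 18 mitosis genes were called at each step up to d4. From d2.5 to d3, Ube2c rose in wildtype cells (0.36, SE 0.0978, FDR = 0.0104) and Ccnb2, Bub1b and Top2a rose in Nr6a1-/- cells, beside 5.91% and 7.43% of all genes tested that rose. The Ube2c call was lost without d2.5 or d3 replicate 1 (FDR = 0.0605 to 0.0849), that of Bub1b without either of 2 libraries and those of Ccnb2 and Top2a without any of 4 each (FDR = 0.0556 to 0.151). From d3 to d4, Cdk1, Aurkb and Ube2c rose in wildtype cells, and Aurkb and Bub1 rose and Cdc20 fell in Nr6a1-/- cells. Each of these 6 calls was lost on leaving out any single one of 2 to 5 libraries (FDR = 0.0517 to 0.177). Over all 43 genes that step had 7 higher and 2 lower calls in wildtype and 7 and 7 in Nr6a1-/- cells, beside 21.1% and 25.9% of all genes tested that changed either way. With no scaling beyond library totals the splits were 5 and 4 in wildtype and 4 and 14 in Nr6a1-/- cells.

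Between genotypes, none of the 18 mitosis genes was called at d2 or d2.5, with 1 at each stage at an unadjusted p below 0.05 in edgeR's test and 0 called by DESeq2. At d3 Top2a and Bub1b were higher in Nr6a1-/- cells. At d4 Top2a, Bub1b, Bub1, Ccnb1 and Kif11 were higher and Cdk1 and Kif23 lower, so that the kinase Cdk1 and its cyclin Ccnb1 were called in opposite directions. At d4G only Top2a was called. The shares called in either direction were 11.1% at d3, 38.9% at d4 and 5.56% at d4G, beside 10.8%, 18.9% and 7.9% of all genes tested. The median log2 fold changes of the 18 genes were 0.14 at d3, 0.09 at d4 and 0.16 at d4G, and 16, 12 and 17 of them lay above 0. Over all genes tested the medians at these stages were 0.0024, 0.0179 and 0.0113. Of the tested genes on chromosomes other than 8, where all 18 lie, 47.5%, 46.4% and 46.4% lay below 0. At d4, 3 were higher and 1 lower without wildtype replicate 1, 4 and 1 without replicate 2 and 0 and 1 without replicate 3. Without Nr6a1-/- replicate 1 they were 3 and 3, and without replicate 2 or 3 they were 2 and 1. At that stage the counts of mitosis genes called were smaller under several other settings, with 2 higher and 1 lower by DESeq2 and 0 and 1 when the fit held the d4 libraries alone.

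Top2a stood at 483, 519 and 507 CPM in wildtype and 599, 579 and 633 CPM in Nr6a1-/- libraries at d3 (log2 fold change 0.26, SE 0.0717, FDR = 0.0122). At d4 the values were 514, 576 and 538 CPM against 692, 581 and 612 CPM (log2 fold change 0.21, SE 0.0712, FDR = 0.0331), and at d4G 529, 555 and 592 CPM against 672, 683 and 709.9 CPM (log2 fold change 0.30, SE 0.0716, FDR = 0.00458). The genotypes did not overlap at these 3 stages. Calls were lost at d3 without wildtype replicate 1 or Nr6a1-/- replicate 3 (FDR = 0.0684 to 0.086), at d4 without wildtype replicate 1 or 3 or Nr6a1-/- replicate 1 (FDR = 0.132 to 0.214) and at d4G without wildtype replicate 1 (FDR = 0.0502). Bub1b, of the spindle checkpoint (chromosome 2, 118598211 to 118641591, plus strand), stood at 43.4, 41.0 and 40.8 CPM against 51.4, 57.7 and 51.3 CPM at d3 (log2 fold change 0.36, SE 0.110, FDR = 0.0297). At d4 it stood at 42.7, 47.2 and 37.5 CPM against 56.7, 55.1 and 53.3 CPM (log2 fold change 0.37, SE 0.106, FDR = 0.0112). The groups did not overlap, and the d3 call was lost without any wildtype library or Nr6a1-/- replicate 1 or 2 (FDR = 0.0518 to 0.129) and the d4 call without wildtype replicate 3 (FDR = 0.126).

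Kif23, a motor of cytokinesis, stood at 83.3, 82.9 and 77.5 CPM in wildtype and 58.5, 57.6 and 64.3 CPM in Nr6a1-/- libraries at d4 (log2 fold change -0.43, SE 0.124, FDR = 0.0117), without overlap, and this call held whichever library was left out. Of the other d4 calls, Ccnb1 was lost without any of 3 libraries, Kif11 of 4 and Cdk1 and Bub1 of 5 (FDR = 0.0502 to 0.298), and the groups overlapped for Ccnb1 and Cdk1. Aurkb, the mitosis gene with fewest counts, ranged from 26.8 to 60.6 CPM in wildtype and from 30.8 to 72.4 CPM in Nr6a1-/- libraries and was called between genotypes at no stage.

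Gdf11, set against the same 24 h without it, was followed by calls in all 3 classes in wildtype cells, where 16 of 43 genes (37.2%) were called beside 28.8% of all genes tested (14.3% higher and 14.5% lower). Of the 18 mitosis genes 5 fell, namely Cdk1, Cdc20, Ube2c, Birc5 and Ccnb2, and none rose. The Ccnb2 call was lost without any of 5 of the 6 libraries (FDR = 0.056 to 0.349), and with no scaling beyond library totals 2 mitosis genes rose and 4 fell. Of the 15 S phase genes 3 rose (Mcm4, Rrm1 and Rrm2) and 4 fell (Mcm2, Pcna, Gins2 and Tyms), so that helicase subunits moved in both directions. The Rrm2 call was lost without d4 replicate 1 or 2 or d4G replicate 3 (FDR = 0.0662 to 0.157). Of the G1 regulators Cdk6 and Cdkn1b rose and Ccnd1 and Cdkn2a fell, with Cdkn2a lost without d4 replicate 1 or 2 or d4G replicate 3 (FDR = 0.0527 to 0.273). In Nr6a1-/- cells 6 of 43 (14.0%) were called, beside 18% of all genes tested (8.45% higher and 9.59% lower). None of the S phase genes was called in edgeR's test, with 4 of 15 at an unadjusted p below 0.05 and 0 called by DESeq2. Cdk1 and Ccnd2 fell, and Cdkn1b, Mki67, Cenpe and Kif23 rose. The Mki67 call was lost without d4 replicate 1 or d4G replicate 2 (FDR = 0.0649 to 0.0781) and that of Cenpe without d4 replicate 2 or 3 or d4G replicate 1 or 2 (FDR = 0.0806 to 0.23). Only for Ccnd2 was the difference between the genotypes' responses called (2.33% of the 43 genes, beside 2.66% of all tested), so that for the other genes a call in 1 genotype alone does not show that the responses differed. Without d4 Nr6a1-/- replicate 1, the library with the lowest TMM factor, 5 of the 43 were called (Mcm2, Pcna and Cdc20 higher, Rrm1 and Ccnd2 lower), and 823 of all genes tested in place of 323. The count was 0 without d4 wildtype replicate 1 or 2, d4G wildtype replicate 3 or d4G Nr6a1-/- replicate 3.

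Cdk1 went from 177, 165 and 172 CPM at d4 to 123, 104 and 120.2 CPM at d4G in wildtype libraries (log2 fold change -0.57, SE 0.0990, FDR = 3.27e-05), without overlap. In Nr6a1-/- libraries it went from 171, 120.5 and 134 CPM to 108, 96.8 and 114 CPM (log2 fold change -0.42, SE 0.104, FDR = 0.00353), a call lost without d4 replicate 1 (FDR = 0.0932). Pcna fell in wildtype cells from 289 ± 14.2 to 202 ± 13.3 CPM (SD, n = 3, log2 fold change -0.52, SE 0.0797, FDR = 4.86e-06), and Gins2 from 68.3 ± 10.3 to 39.4 ± 3.24 CPM (log2 fold change -0.78, SE 0.134, FDR = 2.64e-05). Rrm1 rose from 152 ± 9.04 to 208 ± 10.3 CPM (log2 fold change 0.45, SE 0.0821, FDR = 5.94e-05). These wildtype calls of Cdk1, Pcna, Gins2 and Rrm1 held whichever library was left out. Without d4 wildtype replicate 2, 11 of the 43 genes were called in wildtype cells, 3 higher and 8 lower. With no scaling beyond library totals the wildtype split of 5 higher and 11 lower became 8 and 8, and the median of all genes tested moved to 0.11, so that the direction of small changes at this step depends on the scaling.

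A wider list of 96 cell cycle genes, 92 of them tested, was read from the same fit. The alternative settings and the leaving out of single libraries, d4 wildtype replicate 2 included, were not read for this list. Between genotypes 3, 4, 12, 18 and 3 were called in the order of the stages, or 3.26%, 4.35%, 13.0%, 19.6% and 3.26%, beside 4.07%, 6.45%, 10.8%, 18.9% and 7.9% of all genes tested. Of the 6 tested genes of this list on chromosome 8, 5 were lower in Nr6a1-/- cells at 1 or more stages, against 9 of 86 on other chromosomes. At single stages 23.1 to 30.5% of all tested genes of chromosome 8 and 1.54 to 7.98% of the others were called lower. Their shares over 1 or more stages were not counted. Orc6, a subunit of the origin recognition complex on chromosome 8, was lower at all 5 stages (log2 fold change -0.46, -0.40, -0.34, -0.56 and -0.51). The GINS subunit Gins4, also on chromosome 8, and the clamp loader subunit Rfc3 were lower at d4 (-0.38 and -0.43). Ckap2, a microtubule protein of the mitotic spindle on chromosome 8, was lower at d2.5, d3 and d4 (-0.48, -0.74 and -0.86).

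Inhibitors of G1 in the wider list were called in both directions. In Nr6a1-/- cells Cdkn2d was higher at 1 stage and Cdkn1a lower at 1 stage, and Cdkn2c was not tested. Cdkn1c, which encodes p57, was lower in Nr6a1-/- cells at d2, with means of 48.9 against 77.9 CPM (log2 fold change -0.68, SE 0.131, FDR = 7.58e-04), and at d4, with 25.4 against 70.2 CPM (log2 fold change -1.47, SE 0.144, FDR = 5.57e-10). Cdkn2b, which encodes p15 and lies next to Cdkn2a, fell below wildtype at d3 (log2 fold change -1.47, SE 0.353, FDR = 0.0044) and d4 (log2 fold change -1.72, SE 0.464, FDR = 0.00691), at means of 8.64 CPM or less. E2f4, an E2F factor that represses in G1 and lies on chromosome 8, was lower at d4 (log2 fold change -0.60, SE 0.140, FDR = 0.00186). Among the mitosis genes of the wider list, Cdca8 of the chromosomal passenger complex was higher at d3 (log2 fold change 0.35, SE 0.0729, FDR = 0.00121) and d4 (log2 fold change 0.35, SE 0.0721, FDR = 4.54e-04), and Nusap1, a spindle protein, at d4 (log2 fold change 0.52, SE 0.0966, FDR = 1.04e-04) and d4G (log2 fold change 0.38, SE 0.0998, FDR = 0.0114). Gtse1, a mitosis gene of the list named after its values were seen, was lower at d2.5, d3, d4 and d4G (-0.41, -0.46, -0.56 and -0.41). Over the first 12 h of CHIR, 14 of the 42 mitosis genes of this list fell and 2 rose in wildtype cells, and 20 fell and 1 rose in Nr6a1-/- cells, with median log2 fold changes of -0.19 and -0.29, beside 12.1% and 11.2% of all genes tested that fell and 13.3% and 12.9% that rose.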

How the data were processed

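Poly(A)-primed 3′ end RNA-seq libraries of 30 samples, 3 in each of 10 groups of stage and genotype, were analysed. The authors deposited 1 table of raw counts for 54134 genes, and the submitters' processing notes name STAR, edgeR and mm10. The counting tool, its use of strand and the collapse of molecular identifiers are not given in the sources used here, so that intervals and floors cover counting error only. Deposited tables of the authors' own comparisons (fold changes and p-values) were not used.

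A gene was tested (12149 in all) where, within 1 group, 2 or more libraries exceeded both 10 counts and 2 CPM. Counts were scaled by TMM and fitted over all 10 groups with edgeR's quasi-likelihood test (edgeR 4.0.16, R 4.3.3), with Benjamini-Hochberg adjustment over all genes tested and a threshold of 0.05 (FDR). The 16 comparisons were 5 of genotype, 4 steps in each genotype and 3 differences between steps. Printed CPM are TMM-scaled. Tested on simulated data for the d4 genotype comparison (11434 genes, 200 changed), the procedure recovered 97.2% of genes changed by a log2 of 1 and 54.8% of those changed by 0.5. Of its 169 calls, 14 (8.28%) were unchanged genes, a larger share than the threshold of 0.05. The changed genes were drawn from genes of higher mean CPM, so that these rates do not cover genes of few counts such as Cdkn2a, Ccnd3 and E2f1. Alternatives were RLE factors, no factors, no filter, thinning to the smallest total, a fit of the compared libraries alone, DESeq2 1.42.0, a replicate block and leaving out each library. They were read for the 44 genes and not for the genes of the wider list. Coordinates are from GENCODE vM21 (GRCm38) and promoter sequences from RefSeq (GRCm38.p6). Levels were not compared between genes, since 3′ priming differs among them.

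The members and lists were chosen with earlier results of these data known. Values of each library were given for genes called between genotypes at 2 or more stages in 1 direction, for the 2 called genes of each class with the largest change in each genotype comparison, for the D cyclins, Cdkn1b and Cdkn2a, and for the highest and lowest gene of each class, the lowest by their range. From the wider list, the 3 genes of each class with the lowest FDR between genotypes were named. Gtse1 and the remaining inhibitors of G1 were named after their values were seen.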

Additional observations from a re-analysis of the deposited data

Results flagged for a closer look

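In 5 tests of 3 G1 regulators, the response of Nr6a1-/- cells differed from that of wildtype cells, as an interaction term of edgeR's fit. Each value is the log2 fold change in Nr6a1-/- cells minus that in wildtype cells. For Ccnd2 it was 1.07, SE 0.195, FDR = 7.15e-04 from d2 to d3, 1.15, SE 0.171, FDR = 1.77e-05 from d3 to d4 and -0.69, SE 0.170, FDR = 0.0154 for Gdf11 at d4. For Ccnd1 it was -0.59, SE 0.123, FDR = 0.00205 from d3 to d4. For Cdk6 it was 0.89, SE 0.224, FDR = 0.0122 from d3 to d4. They are 1 of 43 genes called for d2 to d3, 3 for d3 to d4 and 1 for Gdf11, or 2.33%, 6.98% and 2.33%, beside 2.27%, 5.72% and 2.66% of all genes tested. The Ccnd2 terms from d2 to d3 and from d3 to d4 share the d3 libraries, and those from d3 to d4 and for Gdf11 share the d4 libraries. The Ccnd2 terms up to d4 and the Ccnd1 term held whichever library was left out, the Cdk6 term was lost without d3 wildtype replicate 3 or d3 Nr6a1-/- replicate 1 (FDR = 0.0503 to 0.0591), and the Ccnd2 term for Gdf11 without d4 wildtype replicate 1 or 2, d4G wildtype replicate 3 or d4G Nr6a1-/- replicate 3 (FDR = 0.0502 to 0.0767).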

How the results depend on the processing

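Of 9716 fold changes of the 43 tested cell cycle genes, without the wider list, under the alternatives run, 368 fell short of the threshold, 121 passed it and 9227 kept their side. The sign differed in 520, 0 of them called with either setting. Between genotypes at d2 (2 called), 1 gene was called with RLE factors, with no factors and by DESeq2, and 4 with only the libraries compared. At d2.5 (2 called) 4 were called with no filter. At d4 (16 called) 8 were called with no filter, 8 with thinning and 7 with only the libraries compared. For d3 against d2.5 in wildtype cells (6 called) 3 were called with no filter, and for d4 against d3 in Nr6a1-/- cells (14 called) 9 with only the libraries compared. For the differences between steps, d2 to d3 (1 called) gave 2 with thinning and 2 with only the libraries compared, d3 to d4 (3 called) gave 6 with no filter, and Gdf11 (1 called) gave 2 with no filter. The cause was not tested. Leaving out 1 library gave 1 to 1 genes at d2, 2 to 4 at d2.5, 3 to 6 at d3, 9 to 15 at d4 and 1 to 5 at d4G. It gave 16 to 20, 2 to 6, 4 to 10 and 11 to 15 for the steps in order in wildtype cells, 14 to 18, 6 to 9, 6 to 14 and 4 to 8 in Nr6a1-/- cells, and 1 to 1, 2 to 6 and 0 to 5 for the 3 differences between steps. Over all genes tested, only the libraries compared gave 1398 calls at d4 against 2294, 440 against 695 for the d3 to d4 difference and 212 against 323 for that of Gdf11, and thinning gave 181 against 276 for d2 to d3. Same-numbered libraries of the genotypes did not deviate together (r = -0.111 to 0.0559 over 15 pairs, 4 libraries best with their own number), and a replicate block gave 2, 2, 8, 16 and 7 calls between genotypes at the 5 stages in order, 21, 6, 9 and 16 for wildtype steps, 21, 9, 14 and 6 for Nr6a1-/- steps and 1, 4 and 1 for the differences. Genes of few counts, such as Cdkn2a, Ccnd3 and Rb1, limit what this depth can show.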
